A study of Mus musculus with 38 samples.

Results

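Cardiomyocytes from mice that received empagliflozin (EMPA) before acute myocardial infarction (AMI) were compared with cardiomyocytes from Sham mice, in 4 EMPA–Pre-AMI and 4 Sham libraries of 38 in the series. The libraries were chosen by their labels and not by any measured value, and every gene of the table was considered. All mice were young adult male C57BL/6 animals. EMPA–Pre-AMI mice were given EMPA orally at 10 mg/kg/d for 6 weeks, followed by ligation of the left anterior descending coronary artery for 30 min and reperfusion for 2 h. Sham mice were given vehicle (5% DMSO in saline) for the same time and had the chest opened without ligation. The 5 Control-AMI cardiomyocyte libraries (vehicle, then the same ischemia and reperfusion) were in the same model and serve here for orientation. No group received EMPA without infarction, so in this comparison the drug and the infarction cannot be told apart. Each library held cells pooled from a pair of hearts, taken as the low-speed pellet of the collagenase-digested ischemic region and not sorted by antibody, so a library is an average of a pair of animals and may hold other cell types.

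EMPA, a drug for diabetes and heart failure, inhibits the sodium-glucose cotransporter SGLT2, which takes up filtered glucose in the kidney. Cardiomyocytes cover most of their energy demand by oxidation of fatty acids and other fuels in mitochondria. Ischemia followed by reperfusion is known to bring oxygen radicals, calcium overload and a rapid wave of stress transcripts, among them metal-binding proteins, growth-arrest genes and feedback inhibitors of growth factor and cytokine signals.

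The 4 Sham libraries held 2895547 to 4509284 counts and the 4 EMPA–Pre-AMI libraries 2031716 to 3801375, with 50.6% to 62.1% and 55.7% to 66% of the counts in mitochondrially encoded genes. The cell type label held in both groups. The 9 defining cardiomyocyte genes (among them Tnnt2, Myh6 and Ryr2) summed to 29536 to 35006 CPM in Sham and 30998 to 42108 CPM in EMPA–Pre-AMI, where CPM is the count scaled to a common library total with TMM factors, against 1113 to 1619 and 212 to 1284 CPM for 10 fibroblast genes and 430 to 651 and 285 to 528 CPM for 10 endothelial genes. Of these 10 fibroblast genes, 9 were tested, all had a lower mean in EMPA–Pre-AMI (median log2 fold change −0.86) and none passed the test. Relative to Sham, the median of the 9 genes was at −1.68 and −2.80 in EMPA–Pre-AMI replicates 1 and 3 and at −0.23 and −0.22 in replicates 2 and 4, within the Sham range of −0.38 to 0.24. Fewer fibroblasts in the pellet and less RNA per fibroblast cannot be told apart. By the number of genes and the leading principal component, EMPA–Pre-AMI replicates 2 and 3 stood apart from the other 6 libraries. At an equal depth of 2000000 counts, the Sham libraries would hold 12701 to 12960 genes and EMPA–Pre-AMI replicates 1 and 4 12412 and 12576, whereas replicates 2 and 3 would hold 10898 and 11875. On the leading principal component (37.5% of the variance), these 2 libraries lay at 93.6 and 42.8, replicate 1 at 11.6, and replicate 4 at −10.9 among the Sham libraries (−17.0 to −9.04). They lay at opposite ends of the next component (19.9%), replicate 2 at 38.32 and replicate 3 at −58.05. There, replicates 1 and 4 were at −31.67 and −5.39 and Sham at −0.81 to 8.22. Short transcripts were also higher in replicates 2 and 3. With the genes divided into 5 classes of equal size by transcript length, the median log2 level relative to Sham in the shortest class exceeded that in the longest by 0.74 and 0.57 in replicates 2 and 3, by 0.05 and 0.04 in replicates 1 and 4, and by −0.07 to 0.12 in Sham. Some results are therefore also given without these 2 libraries.

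**Figure D1:**
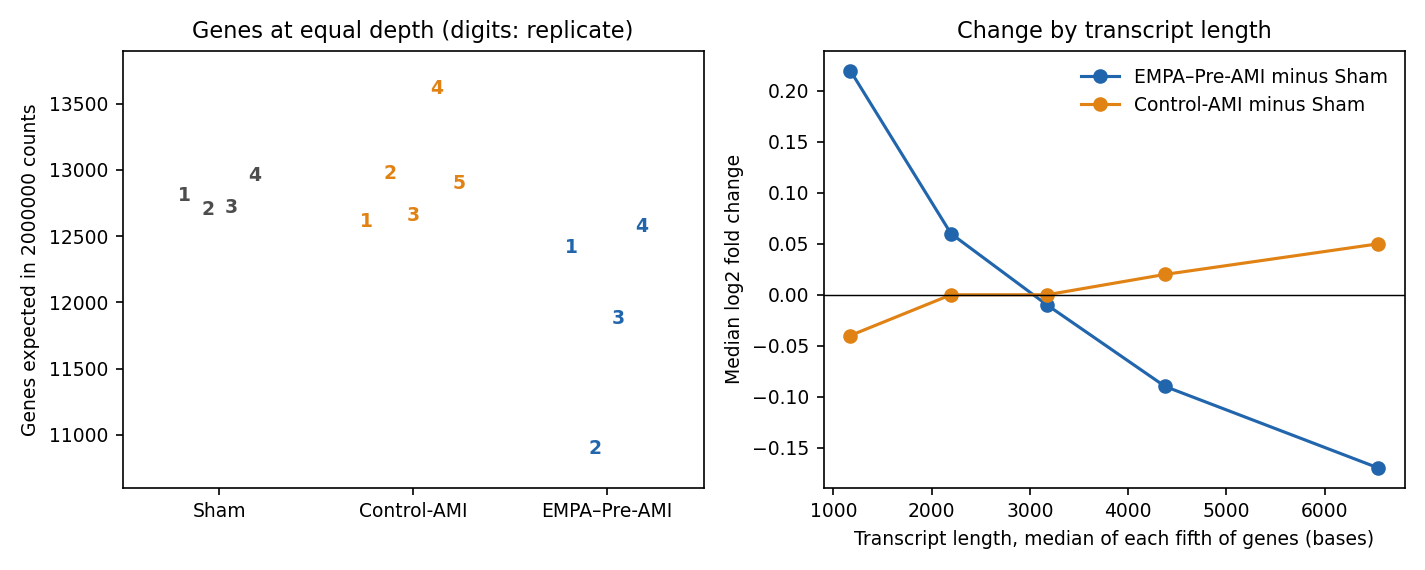
Left, the number of genes expected in 2000000 counts drawn from each cardiomyocyte library, by group, with digits for the replicate number and an axis that does not start at 0. Right, the median log2 fold change of the genes in each of 5 classes of transcript length, plotted at the median length of the class in bases. EMPA–Pre-AMI replicates 2 and 3 hold the fewest genes (10898 and 11875), and the EMPA–Pre-AMI against Sham medians run from 0.22 in the shortest class to −0.17 in the longest.

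A total of 31 genes differed between EMPA–Pre-AMI and Sham cardiomyocytes (FDR: <0.05, with FDR the p of edgeR's quasi-likelihood test after Benjamini-Hochberg adjustment over 9167 genes), of which 28 were higher (0.305% of genes tested) and 3 lower (0.0327%). Metallothioneins, the growth-arrest genes Gadd45a, Gadd45b, Gadd45g and Cdkn1a, and the mTOR inhibitor Ddit4 were among those that rose, and the kinase Sik2, the pseudokinase Trib2 and the guidance molecule Sema5a fell. Without adjustment, 837 genes had a p below 0.05 and were higher (9.13%) and 835 were lower (9.11%). The 4 EMPA–Pre-AMI values lay wholly above the 4 Sham values in 315 genes (3.44%) and wholly below in 407 (4.44%). Of the 31 genes, 30 had groups that did not overlap, Ccn2 being the exception, and the median log2 fold change of all genes was −0.003.

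The extent of the change depended on EMPA–Pre-AMI replicate 4, the library nearest to Sham. Without it, 943 genes passed the test, 402 higher and 541 lower, with all 31 genes among them. Leaving out 1 Sham library gave 14 to 17 genes. Of the 31 genes, 13 passed in all 13 fits that left out 1 of the cardiomyocyte libraries: Ddit4, Mt2, Gadd45g, Chac1, Arrdc3, S100a8, Rhobtb1, Depp1, Mt1, Tiparp, Cish, Cdkn1a and Sik2. Without both EMPA–Pre-AMI replicates 2 and 3, 12 of the 31 passed, namely the same genes except Depp1 and Tiparp, with Gadd45b added. The direction of all 31 was kept in each of these fits. The sample-sheet numbers in the labels run in separate ascending series, which were read here as lists, although the labels do not say what they mean. EMPA–Pre-AMI replicate 4 was the only EMPA–Pre-AMI library on the list of the Sham libraries, which also held all Control-AMI libraries. When the list was a term of the model, or when only its libraries were kept, 2 genes passed (Ddit4 and Mt2), and all 31 kept their direction. For EMPA–Pre-AMI replicates 1 to 3 the list and the group cannot be told apart. Replicates 1 and 3, in which the fibroblast genes were lowest, shared a list that held no other cardiomyocyte library. Replicate 2 was on a different list. The part of the list in the fibroblast gene levels was not tested.

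Ddit4, whose product REDD1 restrains the growth kinase mTORC1 and is known to respond to low oxygen and to glucocorticoids, had the lowest p of all genes (ENSMUSG00000020108, chromosome 10, 59785491 to 59788492 of GRCm39, minus strand). Its level was 19.4, 29.6, 22.2 and 27 CPM in Sham replicates 1 to 4 and 167, 186, 164 and 110 CPM in EMPA–Pre-AMI replicates 1 to 4. The lowest EMPA–Pre-AMI library, replicate 4, was thus well above the highest Sham library. The log2 fold change was 2.67 (SE 0.21, FDR = 4.3e-07). Control-AMI had 68 ± 6.02 CPM (n = 5), and the difference of EMPA–Pre-AMI from Control-AMI was 1.20 on the log2 scale (FDR = 0.0217). The difference from Control-AMI missed the threshold without Control-AMI replicate 1, 2 or 5, EMPA–Pre-AMI replicate 3 or Sham replicate 3. It also missed it with only these 2 groups in the fit.

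Both metallothionein genes tested, which encode small cysteine-rich proteins that bind zinc and copper and take up oxygen radicals, rose. Mt2 (ENSMUSG00000031762, chromosome 8, 94898819 to 94900207, plus strand) was at 29.3, 49.5, 29.8 and 40.9 CPM in the Sham libraries and at 257, 567, 448 and 198 CPM in the EMPA–Pre-AMI libraries. EMPA–Pre-AMI replicates 2 and 3 were the highest, and replicate 4, the lowest, was still far above all Sham libraries. The log2 fold change was 3.29 (SE 0.34, FDR = 3.83e-05), and 2.61 without replicates 2 and 3 (FDR = 6.65e-05). Mt1 (ENSMUSG00000031765, chromosome 8, 94905710 to 94906955, plus strand), its neighbour, had 238 ± 20.0 CPM in Sham and 759 ± 231 CPM in EMPA–Pre-AMI (mean ± SD, n = 4 each). The lowest EMPA–Pre-AMI library held 495 CPM and the highest Sham library 257 CPM, for a log2 fold change of 1.67 (SE 0.25, FDR = 0.00185). In Control-AMI, Mt2 was at 211 ± 69.1 and Mt1 at 495 ± 142 CPM.

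The promoter windows of the metallothionein pair are shown because the pair rose together and its known regulator, the metal-responsive factor MTF1, binds a defined element. The windows (RefSeq, 250 bases before to 50 bases after the annotated start) each matched GRCm39 at 1 place, Mt2 at chr8:94898996-94899295 and Mt1 at chr8:94905467-94905766, both on the plus strand. Capitals mark the metal response element core TGCACNC or TGCGCNC on either strand, found 4 times in Mt2 and 3 times in Mt1, with no overlap between matches. At least 1 match was present in 25.9% of the 32544 promoter windows of the table, and at least 3 in 1.99%. Of the 7152 tested genes with a window, 41.8% had a match, as did 11 of the 23 genes that rose and had a window. A match describes the letters and not binding.
Mt2: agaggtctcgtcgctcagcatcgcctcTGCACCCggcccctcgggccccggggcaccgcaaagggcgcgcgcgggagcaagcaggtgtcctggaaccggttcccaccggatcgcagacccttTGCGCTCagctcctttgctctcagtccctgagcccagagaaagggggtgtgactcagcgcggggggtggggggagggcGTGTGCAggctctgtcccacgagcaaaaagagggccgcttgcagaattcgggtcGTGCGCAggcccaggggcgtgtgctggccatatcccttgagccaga
Mt1: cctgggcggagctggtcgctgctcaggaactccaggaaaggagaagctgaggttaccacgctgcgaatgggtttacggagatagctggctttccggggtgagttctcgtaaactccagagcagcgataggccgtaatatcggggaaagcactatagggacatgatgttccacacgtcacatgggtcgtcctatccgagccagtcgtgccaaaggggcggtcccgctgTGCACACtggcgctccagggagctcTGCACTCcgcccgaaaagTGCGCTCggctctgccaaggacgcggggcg

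Gadd45g, Gadd45b and Gadd45a, 3 genes grouped here after their values were seen, encode small stress sensors that act on the kinases p38 and JNK and on the cell cycle. Gadd45g (ENSMUSG00000021453, chromosome 13, 52000714 to 52002508) was at 14.6, 15.5, 10.3 and 7.12 CPM in Sham and at 59.2, 72.6, 69.9 and 39.4 CPM in EMPA–Pre-AMI, a log2 fold change of 2.33 (SE 0.27, FDR = 0.00013). Gadd45b had 7.05 ± 3.24 and 26.0 ± 8.53 CPM (log2 fold change 1.85, SE 0.32, FDR = 0.00771). Gadd45a had 5.67 ± 2.18 and 17.0 ± 7.72 CPM (log2 fold change 1.53, SE 0.33, FDR = 0.0495), and it missed the threshold in 11 of the 13 fits without 1 library. Cdkn1a, which encodes the cell cycle inhibitor p21 (ENSMUSG00000023067, chromosome 17, 29309936 to 29319701), was at 67.3, 99.5, 50.3 and 61 CPM in Sham and at 223, 282, 161 and 169 CPM in EMPA–Pre-AMI. Its log2 fold change was 1.58 (SE 0.26, FDR = 0.00423). Control-AMI lay at 216 ± 54.8 CPM, close to the EMPA–Pre-AMI mean of 209 CPM, and the difference between these groups was −0.05 on the log2 scale (FDR = 0.919). Among 12 tested targets of p53, the DNA damage factor that induces Cdkn1a and Gadd45a, these 2 genes rose and none fell. Over all genes tested, 0.305% rose. The median log2 fold change of the 12 was 0.30. Without adjustment, 4 of the 12 had a p below 0.05 and were higher (9.13% of all genes). Mdm2, a p53 target that inhibits p53, was at 24.4 CPM in Sham and 24.8 CPM in EMPA–Pre-AMI.

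Chac1, which degrades glutathione and is a late target of the transcription factor ATF4, had the largest fitted increase among the 31 genes (ENSMUSG00000027313, chromosome 2, 119180757 to 119184866, plus strand). It was nearly absent in Sham, at 1.13, 0.728, 1.03 and 0.254 CPM (at most 4 counts in a library), and reached 16, 22.4, 14.7 and 3.87 CPM in EMPA–Pre-AMI. Replicate 4 was again the lowest EMPA–Pre-AMI library and still above all Sham libraries. The log2 fold change was 4.12 (SE 0.52, FDR = 0.000362), and its size rests on few Sham counts. The other genes of the integrated stress response, the program downstream of ATF4, did not pass the test. Of 10 tested members, Chac1 rose (against 0.305% of all genes) and none fell, and the median was −0.23. Without adjustment, 3 of the 10, Chac1 among them, had a p below 0.05 and were higher (9.13% of all genes) and 1 was lower (9.11%). Atf4 itself had 127 CPM in Sham and 94.9 CPM in EMPA–Pre-AMI (FDR = 0.32), Ddit3 27.7 and 21.2 CPM (FDR = 0.50) and Atf5 24.6 and 11.8 CPM (FDR = 0.11). In the unfolded protein response, 1 of 13 tested genes rose (against 0.305% of all genes). This was Herpud1, which aids degradation of misfolded proteins at the endoplasmic reticulum, with 42.6 ± 3.45 CPM in Sham and 84.8 ± 23 CPM in EMPA–Pre-AMI (log2 fold change 0.99, SE 0.21, FDR = 0.0431). Herpud1 passed in 4 of the 13 fits without 1 library, and had an FDR of 0.489 without EMPA–Pre-AMI replicates 2 and 3. The median of the 13 genes was −0.03. Without adjustment, 4 of them had a p below 0.05 and were lower (9.11% of all genes) and 2 were higher (9.13%). The chaperone Hspa5 (BiP) was at 569 and 506 CPM (FDR = 0.69).

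The Chac1 window (chr2:119181473-119181772, plus strand) is shown since Chac1 was the only tested gene of the integrated stress response list that passed. Capitals mark the core TGATGNAA of the element that ATF4 and its partners bind, searched on both strands and found 1 time, 193 bases before the annotated start. This core occurred in 3.91% of all windows.
Chac1: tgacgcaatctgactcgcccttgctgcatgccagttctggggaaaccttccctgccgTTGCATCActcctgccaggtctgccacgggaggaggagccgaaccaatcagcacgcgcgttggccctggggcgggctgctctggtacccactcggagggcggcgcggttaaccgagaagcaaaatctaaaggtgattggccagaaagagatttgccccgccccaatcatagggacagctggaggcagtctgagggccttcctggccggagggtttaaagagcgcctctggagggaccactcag

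Cish, a suppressor of cytokine signaling that is induced by STAT5 (ENSMUSG00000032578, chromosome 9, 107173225 to 107179983, plus strand), was at 25.6, 24.0, 22.6 and 23.1 CPM in Sham and at 46.8, 60.5, 83.8 and 51.7 CPM in EMPA–Pre-AMI. The Sham values lay close together, and all EMPA–Pre-AMI values were higher. The log2 fold change was 1.35 (SE 0.22, FDR = 0.00384). Pim3, a survival kinase, had 39.3 ± 8.71 CPM in Sham and 152 ± 60.8 CPM in EMPA–Pre-AMI (log2 fold change 1.95, SE 0.34, FDR = 0.00904), with 67.6 CPM in replicate 4. It missed the threshold without Sham replicate 1, 3 or 4 (highest FDR = 0.0688). Socs3, a further suppressor of cytokine signaling, was at 4.56 and 30.1 CPM and did not pass (FDR = 0.067). The Cish window (chr9:107173608-107173907, plus strand) is shown because Cish is a textbook STAT5 target. Capitals mark the STAT element TTCNNNGAA, found 2 times, side by side, at 1 and 12 bases from the annotated start. At least 1 match was found in 8.33% of all windows and at least 2 in 0.461%.
Cish: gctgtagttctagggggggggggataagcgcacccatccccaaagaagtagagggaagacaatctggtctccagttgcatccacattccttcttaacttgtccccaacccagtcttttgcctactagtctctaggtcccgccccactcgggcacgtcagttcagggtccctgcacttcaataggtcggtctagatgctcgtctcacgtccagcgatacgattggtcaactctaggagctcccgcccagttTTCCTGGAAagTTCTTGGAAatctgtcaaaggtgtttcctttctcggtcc

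Genes that are induced by FoxO factors or by fasting were mostly higher. In a list of 14 tested genes, 4 rose (against 0.305% of all genes), none fell and the median log2 fold change was 0.98. Without adjustment, 10 of the 14 had a p below 0.05 and were higher, against 9.13% of all genes. In Control-AMI against Sham the median was 0.73, and 8 of the 14 had an unadjusted p below 0.05 and were higher. Over all 9167 genes, 249 had such a p in that comparison, in either direction. The median for EMPA–Pre-AMI against Control-AMI was 0.25. Pdk4, which inactivates pyruvate dehydrogenase and so spares glucose (ENSMUSG00000019577, chromosome 6, 5483097 to 5496339), was at 14.1, 18.0, 7.87 and 13.2 CPM in Sham and at 128, 26.0, 57.4 and 34.5 CPM in EMPA–Pre-AMI. The EMPA–Pre-AMI libraries were spread over a wide range, and replicate 2 lay closest to Sham. Its log2 fold change was 2.19 (SE 0.44, FDR = 0.0461), and it passed in 4 of the 13 fits without 1 library. Pik3ip1, an inhibitor of phosphoinositide 3-kinase, rose by 1.65 on the log2 scale (SE 0.29, FDR = 0.00771) and was at 9.97 ± 2.90 and 31.1 ± 9.34 CPM. Sesn1, a stress protein that restrains mTORC1, rose by 1.75 (SE 0.32, FDR = 0.0112), with 5.25 ± 2.07 CPM in Sham and 17.5 ± 7.45 CPM in EMPA–Pre-AMI. Cited2, a CBP/p300-binding coregulator, rose by 1.25 (SE 0.26, FDR = 0.0442), with 20.2 ± 5.67 and 48.4 ± 7.07 CPM. Txnip, which inhibits thioredoxin and glucose uptake, had 89.6 ± 9.32 CPM in Sham and 220 ± 87.5 CPM in EMPA–Pre-AMI and did not pass (log2 fold change 1.29, SE 0.34, FDR = 0.105), although the groups did not overlap. The ubiquitin ligases of muscle wasting, Fbxo32 (74.7 and 141 CPM, FDR = 0.15) and Trim63 (70.0 and 101 CPM, FDR = 0.35), did not pass either. The per-library medians of the list were 0.94, 0.70, 1.06 and 0.61 above the Sham mean in EMPA–Pre-AMI replicates 1 to 4, and −0.15 to 0.07 in Sham.

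Glucocorticoid-responsive genes shared the leading transcripts. All 14 tested members had a higher mean in EMPA–Pre-AMI, 4 rose (Ddit4, Mt1, Mt2 and Cebpd, against 0.305% of all genes), and the median log2 fold change was 0.91. Without adjustment, 9 of the 14 had a p below 0.05 and were higher (9.13% of all genes). In Control-AMI against Sham the median was 0.85, and 9 of the 14 had an unadjusted p below 0.05 and were higher. The median for EMPA–Pre-AMI against Control-AMI was 0.48. The 4 genes that rose are known to respond to other signals too, and Ddit4 is also in the hypoxia list and the metallothioneins in the antioxidant list. Cebpd, a transcription factor of acute inflammation, had 15.3 ± 2.54 and 59.7 ± 24.0 CPM (log2 fold change 1.94, SE 0.37, FDR = 0.0214), and 13 of its 38 estimates in the table were not whole, so part of its reads were shared with other transcripts. Among the members that did not pass, Fkbp5, a cochaperone of the receptor, had 8.28 and 15.7 CPM (FDR = 0.24) and Tsc22d3, which encodes GILZ, 17.9 and 35.3 CPM (FDR = 0.11). Of 17 tested hypoxia-inducible genes, Ddit4 rose (against 0.305% of all genes) and none fell (median 0.33). Without adjustment, 6 of the 17 had a p below 0.05 and were higher (9.13% of all genes). The glycolytic regulator Pfkfb3 had 4.86 and 13.9 CPM (FDR = 0.086), and Hilpda, a lipid droplet protein strongly induced by hypoxia, 5.81 and 4.17 CPM (FDR = 0.60).

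**Figure D2:**
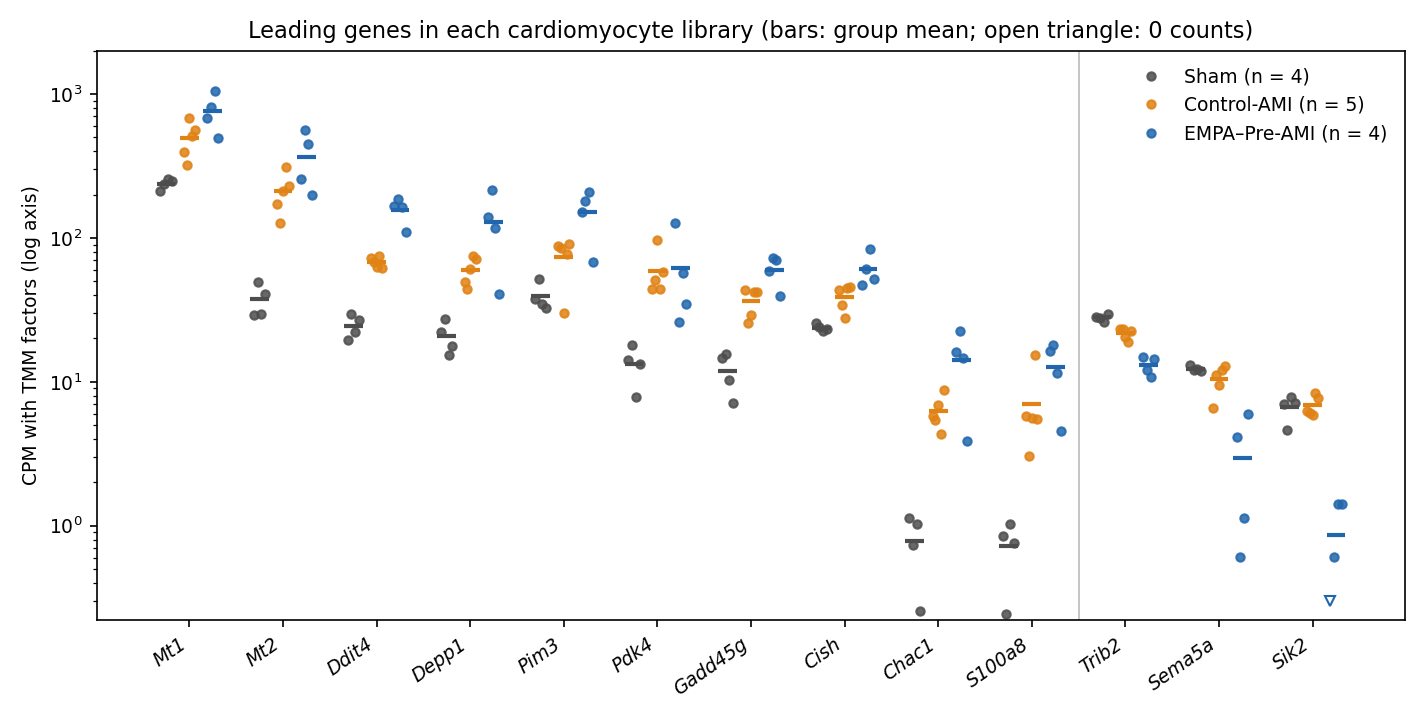
CPM with TMM factors on a log axis in each Sham (grey), Control-AMI (orange) and EMPA–Pre-AMI (blue) cardiomyocyte library, for 10 genes that rose and, right of the line, the 3 that fell. Horizontal bars are group means, and an open triangle at the lower edge stands for 0 counts. All EMPA–Pre-AMI points of these genes lie outside the Sham points, and EMPA–Pre-AMI replicate 4, drawn last in its group, is often the closest to Sham.

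Other genes that rose had varied roles. Depp1, a FoxO-induced gene of autophagy and peroxisomes (ENSMUSG00000048489, chromosome 6, 116627570 to 116629755), had 20.7 ± 5.2 CPM in Sham and 139, 216, 117 and 40.8 CPM in EMPA–Pre-AMI (log2 fold change 2.62, SE 0.37, FDR = 0.00162). Replicate 4 was again far below the other 3 libraries, and without replicates 2 and 3 the gene missed the threshold (log2 fold change 2.12, FDR = 0.0541). Rhobtb1, an adaptor of a ubiquitin ligase, rose by 1.75 on the log2 scale (SE 0.26, FDR = 0.00154), with 13 ± 2.45 and 43.6 ± 17.1 CPM in Sham and EMPA–Pre-AMI. Arrdc3, an arrestin-domain protein that targets receptors for degradation, rose by 1.84 (SE 0.26, FDR = 0.0012), with 6.48 ± 1.24 and 23.2 ± 7.12 CPM. Tiparp, a mono-ADP-ribosyltransferase induced by the aryl hydrocarbon receptor, rose by 1.67 (SE 0.27, FDR = 0.00384), with 9.72 ± 2.02 and 31.3 ± 12.1 CPM. Bcl2l1, which encodes the survival protein Bcl-xL, was at 12.7 ± 2.23 and 39.5 ± 18.6 CPM (log2 fold change 1.62, SE 0.33, FDR = 0.0333). Glul, the glutamine synthetase, had 113 ± 10.4 and 209 ± 38.5 CPM (log2 fold change 0.89, SE 0.19, FDR = 0.0466). Ccn2 (CTGF), a matricellular target of stretch, had 4.87 ± 1.76 and 19.2 ± 10.1 CPM (log2 fold change 1.97, SE 0.38, FDR = 0.0214), with replicate 4 at 6.69 CPM, inside the Sham range of 3.64 to 7.37 CPM. Tmem140, Gm13889, Atosa and Plscr2 also rose, with log2 fold changes between 1.14 and 2.43, and 26 of the 38 estimates of Tmem140 were not whole.

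Of 7 tested leukocyte markers 1 rose (against 0.305% of all genes), S100a8, a calcium-binding protein of neutrophils (ENSMUSG00000056054, chromosome 3, 90567118 to 90578128). It had at most 3 counts in each Sham library, 0.845, 0.243, 1.03 and 0.763 CPM, and 16.5, 18.1, 11.6 and 4.57 CPM in EMPA–Pre-AMI (FDR = 0.00154). From the summed counts, 116 and 10, the ratio was 16.9-fold (95% interval 8.87 to 36.2, counting error only). Its partner S100a9 was at 0.344 and 11.3 CPM (FDR = 0.088) and Lyz2 at 11.5 and 47.2 CPM (FDR = 0.21). Without adjustment, 5 of the 7 tested markers had a p below 0.05 and were higher (9.13% of all genes). Their median log2 fold change was 1.81, and 1.03 without EMPA–Pre-AMI replicates 2 and 3. In Control-AMI against Sham the median was 1.34, and 5 of the 7 had an unadjusted p below 0.05 and were higher. S100a8 was at 7.04 ± 4.77 CPM in Control-AMI (FDR = 0.0301 against Sham). The 14 leukocyte markers summed to 25.0 to 61.1 CPM in Sham and 39.1 to 131 CPM in Control-AMI. The sums were 110, 247, 50.6 and 34.1 CPM in EMPA–Pre-AMI replicates 1 to 4. None of the markers was at 0 in all libraries of a group. Hemoglobin and other erythroid genes summed to 33.3 to 233 CPM in Sham, 112 to 1677 CPM in Control-AMI and 123 to 2656 CPM in EMPA–Pre-AMI. The 2656 CPM belonged to EMPA–Pre-AMI replicate 2, and the other EMPA–Pre-AMI libraries held 123 to 441 CPM. The part of other cells in the level of S100a8 was not tested.

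Only 3 genes fell. Sik2, a salt-inducible kinase that holds back CREB-dependent transcription (ENSMUSG00000037112, chromosome 9, 50800947 to 50920383, minus strand), was at 7.04, 4.61, 7.87 and 7.12 CPM in Sham and at 0, 0.605, 1.41 and 1.41 CPM in EMPA–Pre-AMI, at most 5 counts in a library. The count of 0 in replicate 1 allows up to 1.54 CPM. The log2 fold change was −2.72 (SE 0.47, FDR = 0.00763). Control-AMI, at 6.88 ± 1.09 CPM, lay with Sham, and EMPA–Pre-AMI was lower than Control-AMI by a log2 fold change of −2.77 (FDR = 0.0278). This difference missed the threshold without Control-AMI replicate 1, 2, 4 or 5, EMPA–Pre-AMI replicate 3 or Sham replicate 1, 3 or 4. It also missed it with only these 2 groups in the fit. Of the Sik2 estimates in the 38 libraries, 9 were not whole. Trib2, a pseudokinase that leads signaling proteins to degradation, fell from 28.0 ± 1.56 CPM to 14.9, 12.1, 10.8 and 14.4 CPM (log2 fold change −1.11, SE 0.20, FDR = 0.00991), with Control-AMI at 21.7 ± 1.95 CPM. Sema5a, a semaphorin, had 12.3 ± 0.436 CPM in Sham and 4.12, 0.605, 1.13 and 5.98 CPM in EMPA–Pre-AMI (log2 fold change −2.02, SE 0.41, FDR = 0.0333). It was lowest in replicates 2 and 3, and without both its log2 fold change was −1.23 (FDR = 0.352).

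Among genes that were lower with groups that did not overlap and a mean of at least 10 CPM in the higher group, the 6 with the next lowest p missed the threshold. They were Mndal (77.4 ± 3.84 and 33.3 ± 14.9 CPM, FDR = 0.054), Ccdc88a (35 ± 4.24 and 14.1 ± 6.92 CPM, FDR = 0.0556), Cped1 (48.4 ± 1.60 and 21.9 ± 8.46 CPM, FDR = 0.0673), Igfbp5 (67 ± 7.86 and 29.8 ± 13.3 CPM, FDR = 0.0676), Cep170 (12.2 ± 2.38 and 3.82 ± 1.75 CPM, FDR = 0.0676) and Igsf8 (11.5 ± 3.07 and 3.44 ± 2.11 CPM, FDR = 0.0762). Ccdc88a and Cep170 bind the cytoskeleton and Igfbp5 binds insulin-like growth factors. Mndal belongs to a family of near-identical interferon-inducible genes, 37 of its 38 estimates were not whole, and its value is uncertain.

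SGLT2, the target of EMPA, and its relative SGLT1 were represented by transcripts at or near the limit that a count of 0 allows. Slc5a2, which encodes SGLT2, had 0 counts in every Sham, Control-AMI and EMPA–Pre-AMI library, which allows up to 0.728 to 1.81 CPM in a library. Slc5a1 (SGLT1) had at most 2 counts in a library and was not tested. None of 6 tested sodium and glucose carriers passed the test.

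Genes of oxidative phosphorylation were on average higher in EMPA–Pre-AMI, but none passed the test. Of 84 tested nuclear-encoded subunits of complexes I to V, 83 had a higher mean (median log2 fold change 0.51), 42 had an unadjusted p below 0.05 and were higher (9.13% of all genes), and 2 had EMPA–Pre-AMI values wholly above Sham (3.44% of all genes). The lowest FDR was 0.135. The medians were 0.47 in complex I (38 genes), 0.45 in complex II (4), 0.66 in complex III (10), 0.57 in complex IV (14) and 0.62 in ATP synthase (18). Cox7a1, a muscle subunit of complex IV, had 870 CPM in Sham and 1527 CPM in EMPA–Pre-AMI (FDR = 0.19), and Ndufc2 of complex I 114 and 215 CPM (FDR = 0.14). The 13 mitochondrially encoded proteins had a median of 0.70 and 77 mitochondrial ribosome genes one of 0.35.

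This difference was carried by 2 libraries. Relative to the Sham mean, the median subunit was at 0.01, 1.00, 0.71 and 0.06 on the log2 scale in EMPA–Pre-AMI replicates 1 to 4, at −0.10 to 0.16 in Sham and at −0.33 to −0.02 in Control-AMI. Replicates 2 and 3, the libraries with the fewest genes and the excess of short transcripts, were thus high, and replicates 1 and 4 lay in the Sham range. Without replicates 2 and 3 the median of the 84 genes was 0.06, with 63 genes higher. Of these, 1 had an unadjusted p below 0.05, where 293 of all 9756 genes tested were higher at such a p. Without replicate 4, 23 of the 84 rose, where 402 of all 9470 genes tested did. The subunit transcripts are short (median 871 bases, 62 of 84 in the shortest of the 5 length classes, in which all 1832 genes had a median of 0.22). The part of transcript length or RNA quality in this difference was not tested. Antioxidant genes followed the same libraries. Mt1 and Mt2 rose (against 0.305% of all genes), and the per-library medians of the 19 genes were 0.12, 0.94, 0.83 and 0.03. In the glucocorticoid list the 4 libraries lay at 1.08, 1.47, 0.76 and 0.46 and in the FoxO list at 0.61 to 1.06. Other stress lists did not share this, with 0.68, 0.36, −0.40 and −0.10 in the immediate early list, −0.25, 0.32, −0.34 and −0.09 in the integrated stress response and −0.26, 0.15, −0.07 and −0.06 in the unfolded protein response.

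**Figure D3:**
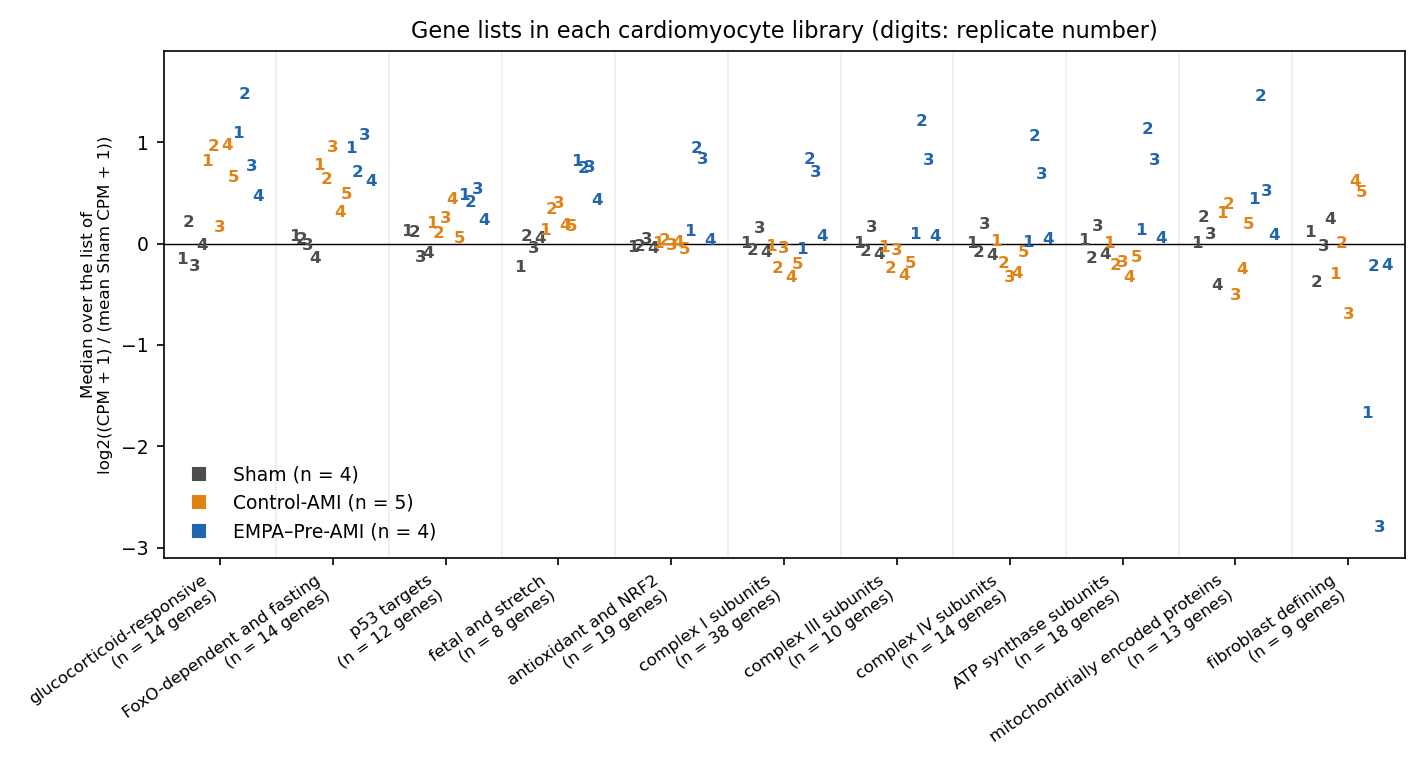
Median over each gene list of the log2 ratio of CPM + 1 to the Sham mean + 1, for every cardiomyocyte library, with digits for the replicate number and colors for the group. In the 4 respiratory chain lists shown and the antioxidant list, EMPA–Pre-AMI replicates 2 and 3 lie above 0.6 and replicates 1 and 4 near 0, whereas all 4 EMPA–Pre-AMI libraries lie above the Sham libraries in the glucocorticoid, FoxO, p53 and fetal lists.

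Among genes of fuel metabolism and the sarcomere, 1 passed the test. Of 32 tested genes of fatty acid uptake and oxidation only Pdk4 rose (against 0.305% of all genes), and the median was 0.27. The trifunctional protein subunit Hadhb was at 156 and 244 CPM (FDR = 0.21). None of 6 genes of ketone body use passed, among them Bdh1, which interconverts ketone bodies (32.8 and 46.5 CPM, FDR = 0.31). All 21 genes of pyruvate oxidation and the citrate cycle had a higher mean (median 0.40), and none passed (lowest FDR = 0.119). None of 25 sarcomere and Z-disc genes passed (median 0.16). In the list of fetal and stretch genes, Ccn2 rose (against 0.305% of all genes), with a median of 0.73 over 8 genes. The natriuretic peptide genes Nppa (238 and 387 CPM, FDR = 0.49) and Nppb (2.27 and 4.10 CPM, FDR = 0.34) did not pass.

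Both infarcted groups were compared with the same Sham libraries, so their differences from Sham are given side by side only. In Control-AMI 6 genes differed from Sham (0.0655% of genes tested), all of them among the 31. They were Ddit4, Mt2, Gadd45g, Chac1, S100a8 and Cdkn1a. All 28 genes that rose in EMPA–Pre-AMI had estimates above Sham in Control-AMI too. Of these 28, 27 had a higher mean in EMPA–Pre-AMI than in Control-AMI. Between EMPA–Pre-AMI and Control-AMI 2 genes differed (0.0218%), Ddit4 and Sik2. Without 1 library the numbers that passed in these 2 comparisons were 2 to 10 and 0 to 1498. Gadd45g had a log2 fold change of 1.61 (SE 0.26) in Control-AMI against Sham and of 2.33 (SE 0.27) in EMPA–Pre-AMI, Chac1 of 2.96 (SE 0.53) and 4.12 (SE 0.52), Pdk4 of 2.13 (SE 0.42) and 2.19 (SE 0.44) and Depp1 of 1.53 (SE 0.35) and 2.62 (SE 0.37). For these 4 genes the difference of EMPA–Pre-AMI from Control-AMI did not pass (FDR = 0.0868, 0.0868, 0.94 and 0.0717).

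Whether the changes were particular to cardiomyocytes was tested in 1 model of all 38 libraries and 12085 genes, which also held the endothelial cells and fibroblasts sorted from the digested hearts. The labels do not tie libraries of the same hearts across populations, so they entered as independent. The EMPA–Pre-AMI against Sham effect differed from that in endothelial cells in 64 genes (0.53%) and from that in fibroblasts in 699 (5.78%), and among the 31 cardiomyocyte genes in 5 and 10. Without 1 cardiomyocyte library the numbers over all genes were 16 to 705 and 256 to 1575, in both cases lowest without EMPA–Pre-AMI replicate 3 and highest without replicate 4. Rhobtb1 rose in cardiomyocytes and had log2 fold changes of −0.04 in endothelial cells and −0.49 in fibroblasts, so that its effect was larger in cardiomyocytes by 1.74 (SE 0.39, FDR = 0.0239) and 2.19 (SE 0.43, FDR = 0.00299). Chac1 had 0.32 in endothelial cells, a difference of 3.75 (SE 0.83, FDR = 0.0251), and in fibroblasts the difference of 5.28 had an SE of 2.30 (FDR = 0.158). Sik2 fell in cardiomyocytes and had −0.40 in endothelial cells (difference −2.37, SE 0.53, FDR = 0.0239) and 0.85 in fibroblasts (difference −3.62, SE 0.52, FDR = 9.6e-05). Mt1 had a smaller effect in cardiomyocytes. It rose by 4.12 in endothelial cells and 4.13 in fibroblasts, and the difference was −2.52 in both cases (SE 0.54, FDR = 0.0237 and SE 0.53, FDR = 0.00577). Cish rose by 3.44 in fibroblasts (difference −2.15, SE 0.52, FDR = 0.0123). Ddit4 had 2.31 in endothelial cells and 1.75 in fibroblasts, and its differences of 0.29 (SE 0.44) and 0.84 (SE 0.46) did not pass. Mt2 rose by 4.58 and 5.06 and Cdkn1a by 2.08 and 1.55 in these populations, and their differences did not pass either. Of the 31 genes, 11 also passed the EMPA–Pre-AMI against Sham test in endothelial cells and 16 in fibroblasts. Among the 16, Herpud1 was lower in fibroblasts (log2 fold change −0.67). The differences from endothelial cells were lost for Rhobtb1, Chac1, Mt1 and Sik2 in 3 or 4 of 8 fits without 1 cardiomyocyte library (highest FDR = 0.124), and those from fibroblasts of Rhobtb1, Mt1, Sik2 and Cish passed in all 8.

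**Figure D4:**
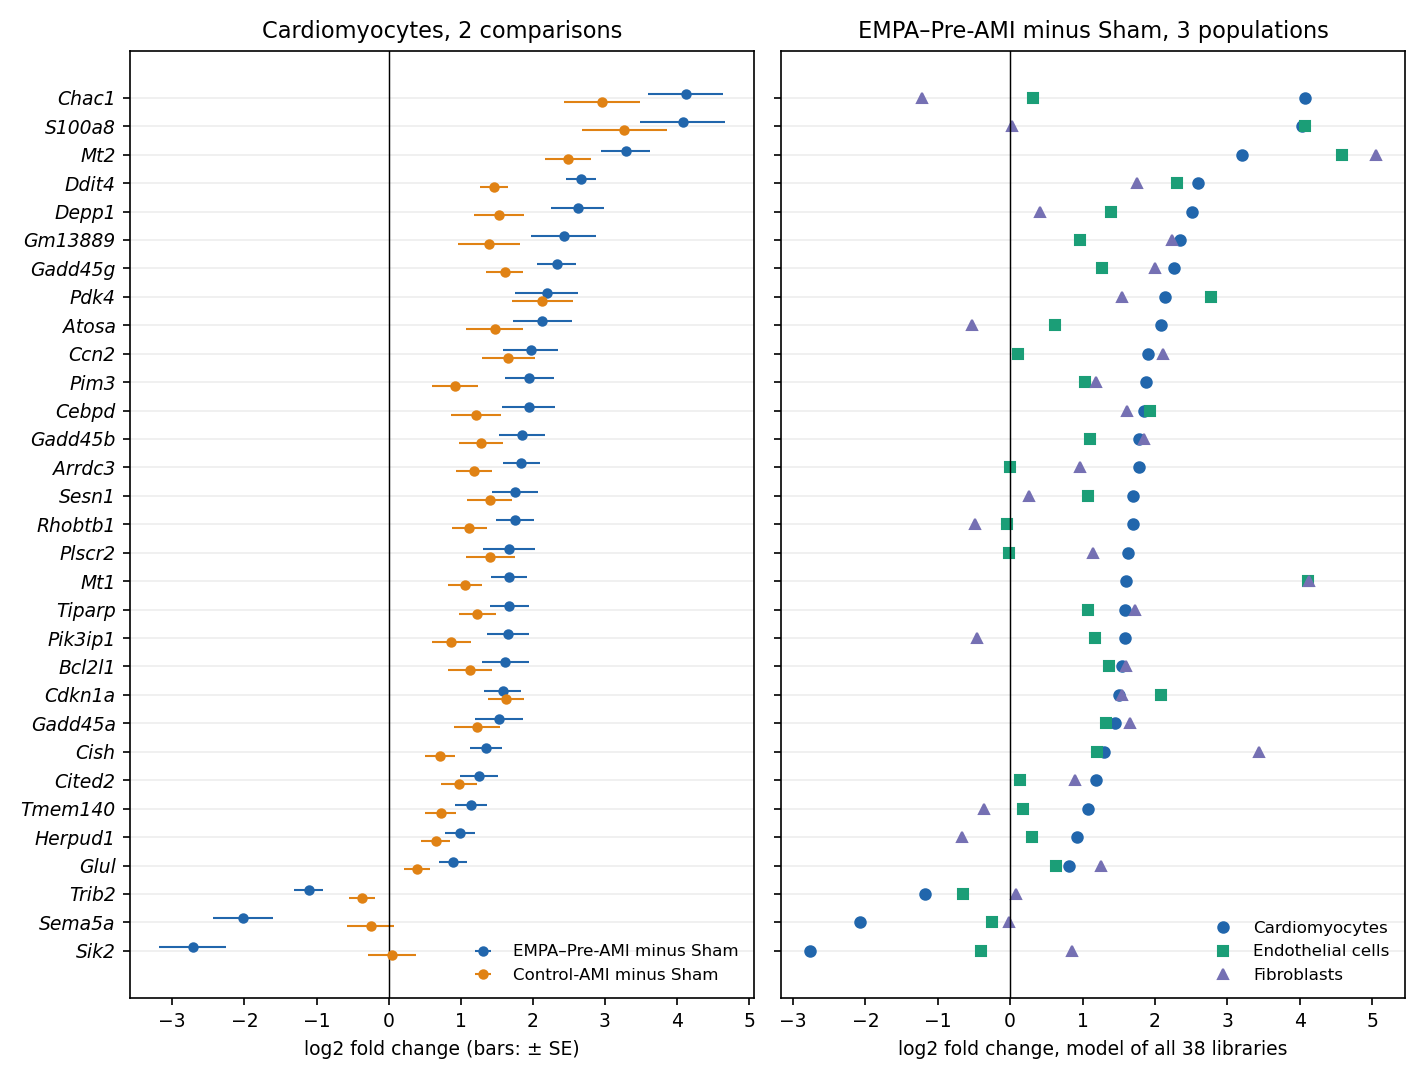
Log2 fold changes of the 31 genes. Left, EMPA–Pre-AMI minus Sham (blue) and Control-AMI minus Sham (orange) in cardiomyocytes with bars for the SE, 2 comparisons that share the Sham libraries. Right, EMPA–Pre-AMI minus Sham in cardiomyocytes (circles), endothelial cells (squares) and fibroblasts (triangles) from the model of all 38 libraries, without error bars. Sik2 and Rhobtb1 lie apart from the other populations, and Mt1 is larger in endothelial cells (4.12) and fibroblasts (4.13) than in cardiomyocytes.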

How the data were processed

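The hearts' cardiomyocytes were used here from a series of 3′ RNA sequencing of mouse cardiomyocytes, endothelial cells and fibroblasts, with groups taken from the labels. The authors trimmed reads with cutadapt 2.8, assigned them with Salmon to GRCm39 and Ensembl annotation 106, and the table the authors deposited holds their estimated counts, not normalized. These expected counts (35682 genes) were rounded here, since 4.549% were not whole. Symbols came from a GENCODE annotation of GRCm39 (275 genes had none).

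The 13 cardiomyocyte libraries were fitted in 1 model of 3 groups with edgeR 4.0.16 in R 4.3.3: filterByExpr (minimum count 10, 9167 genes left), TMM factors, glmQLFit and glmQLFTest with robust estimation, and Benjamini-Hochberg adjustment across all genes (threshold 0.05). The test was checked on simulated data. DESeq2 1.42.0 was an alternative. Named genes were the 8 that rose and 8 that fell most, the 3 with the lowest p in each direction, and up to 2 per gene list in each direction, all with groups that did not overlap and a mean of at least 10 CPM, filled by unadjusted p where fewer than 8 passed, plus Ddit4, Mt1, Mt2, Cdkn1a, Chac1, S100a8, Sik2, Pdk4, Txnip, Slc5a1 and Slc5a2. A further gene of this rule is not reported here. The remaining genes past the threshold and list members were named after their values were seen. The groups compared, gene lists and rules were chosen with earlier results of these data known. Between replicates of Sham or of EMPA–Pre-AMI, the mean squared difference was at least 5.05 times that from counting error. None of these was therefore counted as a duplicate. All libraries were prepared and sequenced together, according to the study's methods. These do not state molecular identifiers, and intervals and limits for counts of 0 (3 counts) cover counting error only. Promoter windows came from RefSeq (table build GRCm38.p6), and 7152 of the tested genes had one. List levels per library were log2 values with 1 CPM added.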

Additional observations from a re-analysis of the deposited data

Results flagged for a closer look

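In 78 groups of 4 libraries, a library far from the other 3 was found 2 times, and chance alone gives about 5% of such groups. EMPA–Pre-AMI replicate 2 held 2656 CPM of erythroid genes, against 123 to 441 CPM in the other EMPA–Pre-AMI libraries. Sham replicate 2 held 511 CPM of mural cell genes, against 416 to 425 CPM in the other Sham libraries.

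The log2 effect of EMPA–Pre-AMI against Sham differed between cardiomyocytes and endothelial cells in 5 of the 31 genes by the test of the difference in 1 model, with differences of 1.74 in Rhobtb1, 3.75 in Chac1, 1.78 in Arrdc3, −2.52 in Mt1 and −2.37 in Sik2. Arrdc3 kept this call in 1 of 8 fits without 1 cardiomyocyte library. Between cardiomyocytes and fibroblasts the effect differed in 10 genes. It was larger in cardiomyocytes by 2.19 in Rhobtb1, 1.60 in Herpud1, 2.04 in Pik3ip1, 2.61 in Atosa and 1.42 in Tmem140. The difference was negative in the other 5, with −1.24 in Trib2, −2.04 in Sema5a, −2.52 in Mt1, −2.15 in Cish and −3.62 in Sik2. Trib2 kept its call in 3 of 8 such fits and Sema5a in 6, and the other 8 genes in all 8.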

How the results depend on the processing

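The 31 genes kept their direction in every alternative in which they could be tested. Their number was 31 with RLE factors and without mitochondrially encoded genes, 29 without robust estimation and 32 with at least 10 counts in every library. It was 198 with DESeq2 (114 higher, 84 lower), 94 without the filter, 19 with only the 2 groups, 16 with the replicate block on the 2 groups (replicate numbers did not pair the libraries, with correlations of deviations of 0.006, −0.09, 0.174 and 0.078), 63 with a term for the library-number range, 2 when the list was a term or with list 4 alone, and 17 and 75 at FDR thresholds of 0.01 and 0.1. In the later range of library numbers alone (Sham and EMPA–Pre-AMI replicates 3 and 4) it was 0, with 454 genes at an unadjusted p below 0.05. It was 14 to 943 without 1 library, and 14 without both EMPA–Pre-AMI libraries with the fewest genes, an alternative added after the data were seen. The largest count came without EMPA–Pre-AMI replicate 4, and counts of 14 to 17 without each Sham library and 19 without EMPA–Pre-AMI replicate 3. Fits with the list term, and with list 4 alone, compare EMPA–Pre-AMI replicate 4 with Sham by construction.

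For Control-AMI against Sham, 6 genes became 18 with DESeq2, 14 without the filter, 22 in list 4 alone, 20 with only the 2 groups or the list term, 37 with the replicate block, 0 in the later number range (180 at an unadjusted p below 0.05), 17 without both EMPA–Pre-AMI libraries, 3 at an FDR of 0.01 and 2 to 10 without 1 library (2 without Sham replicate 1, 3 or 4, 3 without Control-AMI replicate 1 or 5, 10 without EMPA–Pre-AMI replicate 4). For EMPA–Pre-AMI against Control-AMI, 2 genes became 812 with DESeq2, 284 with at least 10 counts in every library, 338 without the filter, 53 with the number-range term, 982 at an FDR of 0.1 and 0 to 1498 without 1 library (1498 without EMPA–Pre-AMI replicate 4, 326 without EMPA–Pre-AMI replicate 1, 1 without Control-AMI replicate 4 or Sham replicate 1 or 4, 0 without Control-AMI replicate 1, 2 or 5, EMPA–Pre-AMI replicate 3 or Sham replicate 3), and 0 in list 4 or the later range alone, with only the 2 groups, with the replicate block or the list term, without both EMPA–Pre-AMI libraries and at an FDR of 0.01 (245 to 2295 genes at an unadjusted p below 0.05 in these). The differences of effect ran from 16 to 705 genes against endothelial cells and from 256 to 1575 against fibroblasts without 1 cardiomyocyte library. They moved by over 1.5 times without each of these libraries except Sham replicate 3 and, for fibroblasts, EMPA–Pre-AMI replicate 1. For these counts the cause was not tested. Depth limits genes of a few CPM, since 3 counts are 0.728 to 1.81 CPM.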

Other observations

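Of 22 immediate early genes tested, none passed the test, 13 had a higher and 9 a lower mean, and the median log2 fold change was 0.31. Without adjustment, 7 had a p below 0.05 and were higher (9.13% of all genes) and 2 were lower (9.11%), and groups did not overlap in 4 that were higher (3.44%) and 1 that was lower (4.44%). Junb, an AP-1 subunit, was at 28.1 and 73.6 CPM in Sham and EMPA–Pre-AMI (FDR = 0.098), while Klf4, a transcription factor, was at 326 and 146 CPM (FDR = 0.16). Both had groups that did not overlap. In the cytokine and NF-kB list, none of 15 genes passed, and the chemokine Cxcl2 was at 1.01 and 9.61 CPM (FDR = 0.069). The inducible chaperones Hspa1a (43.3 and 111 CPM, FDR = 0.14) and Hspa1b (26.4 and 96.9 CPM, FDR = 0.19), which share nearly identical sequence, did not pass, nor did any of 16 heat shock chaperones. Cacna1c, the pore subunit of the L-type calcium channel, was at 20.1 and 39.7 CPM with groups that did not overlap (FDR = 0.10), and none of 26 genes of calcium handling and ion transport passed (median 0.11).

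In glycolysis and glycogen metabolism, none of 20 tested genes passed. A higher mean was found in 14 of the 20 (median 0.31, and 0.15 without EMPA–Pre-AMI replicates 2 and 3). Without adjustment, 8 had a p below 0.05 and were higher (9.13% of all genes) and 1, Pgam1, was lower (9.11%). Pgk1 was at 68 and 104 CPM (FDR = 0.16) and Pgam1, the neighbouring step, at 68.3 and 38.6 CPM (FDR = 0.12). Of 14 circadian clock genes none passed (median 0.05), and of 79 tested cytosolic ribosome genes none passed (median 0.26, and −0.04 without EMPA–Pre-AMI replicates 2 and 3). Of 23 tested genes of mitochondrial import and dynamics none passed (median 0.35), and of 13 regulators of mitochondrial biogenesis none passed (median 0.14), with Ppargc1a at 55.7 and 74.5 CPM (FDR = 0.41). Among the 23 called genes that rose and had a promoter window, the FoxO element GTAAACA was found in 2 (3.13% of tested genes with a window) and the ATF4-type core in 4 (2.59%), as a description of the letters.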
